A study of Macaca fascicularis with 23 samples.

Results

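Cynomolgus monkey (Cm) ESC lines and iPSC lines were compared after LIF and Dox had been withdrawn from their naïve-like culture. All libraries labelled as differentiated, grown in K5c medium, were taken. They were 7 of the 23 libraries of the series, 1 from each line, with 3 ESC lines (CMK6, TRSK and CMK9) and 4 iPSC lines (L3, L6, S6 and S12). The question was which genes set the ESC lines apart from the iPSC lines in this medium, and whether the same genes did so before the withdrawal.

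LIF activates JAK-STAT signalling and sustains naïve pluripotency in mouse stem cells, and KLF2 and NANOG are transcription factors of the naïve network. When such support is taken away, pluripotent cells leave self-renewal and begin to express genes of the germ layers. ESCs are taken from a blastocyst, whereas iPSCs are made from somatic cells by reprogramming factors. Lines of either kind can differ in how fast they leave pluripotency and in the lineage genes they switch on, and lines from different animals also differ in genotype.

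Every line carried PiggyBac vectors with Dox-inducible human KLF2 and NANOG, joined to Venus, and an EOS-GFP/puroR reporter that also encodes rtTA. A further PiggyBac vector, for a constitutive mitochondrial DsRed with neomycin resistance, was used in ESC lines and left out for the iPSC lines. The sources used here do not say which ESC libraries carried it, so its presence and the kind of line cannot be told apart. K5cLD medium supplied LIF and Dox to the naïve-like cells, K5c medium held neither, and primed cells grew in bFGF/KSR medium. The sources used here do not state how long the cells of these libraries had been in K5c. The ESC lines CMK6 and TRSK are male and CMK9 is female. All 4 iPSC lines came from 1 female foetus, L3 and L6 from its liver and S6 and S12 from its stomach, so that the kind of line and the donor cannot be told apart. Episomal vectors for the factors LIN28, L-MYC, KLF4, SOX2 and OCT3/4, together with a hairpin RNA against p53, had been used to make them. The sources used here agree that L3 and L6 retained the vector that carries OCT3/4 and the p53 hairpin, and differ on whether S6 or S12 did. They agree that L3 and S6 kept some expression of exogenous OCT3/4. Some exogenous NANOG expression is also reported to have remained in naïve-like TRSK and S6 without Dox. The part of these transcripts in the values below was not tested. The serial numbers of the K5c libraries run through the ESC lines before the iPSC lines, so any order of preparation and the kind of line cannot be told apart either.

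Values were log2(RPM + 1), where RPM scales the reads of a gene to a fixed total of mapped reads per library. The test took genes with a value over 4 in 1 or more of these libraries, which were 2480 of 8415 genes. A gene over 4 in lines of only 1 kind entered through that kind, which favours a higher mean there. Of the genes placed by their identifiers, 5551 of 5564 lie on chromosomes 1 to 5, so most of the genome was not analysed here. Read from the step between low values, which is what 1 read is worth, depth was about 3063000 to 5491000 reads in the ESC libraries. In the iPSC libraries it was about 941000 reads in L3, 3004000 in L6, 942000 in S6 and 3421000 in S12. The level that 3 reads give was 0.546 to 0.979 RPM in the ESC libraries and 0.877 to 3.19 RPM in the iPSC libraries, a limit that covers counting error only. Depth was thus lowest in L3 and S6, with L6 just under the ESC range and S12 within it, so it was partly tied to the kind of line. The part of depth in the results below was not tested beyond the repeats without L3 and S6. In bulk RNA, fewer cells that express a gene and less RNA per cell cannot be told apart.

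POU5F1 was lower after withdrawal than before in every line, and SOX2 and the neural progenitor gene NES were well expressed in all 7 withdrawn libraries. POU5F1, which encodes the core pluripotency factor OCT3/4, had been between 8.76 and 9.17 on the log2 scale in the naïve-like ESC lines and between 7.11 and 8.18 in the naïve-like iPSC lines. After withdrawal it was 2.2 in CMK6, 3.72 in TRSK, 6.13 in CMK9, 4.84 in L3, 4.48 in L6, 4.40 in S6 and 2.51 in S12. The groups overlapped fully, with the highest level in an ESC line and the second lowest in an iPSC line. The mean difference, given throughout as ESC minus iPSC, was -0.04 ± 0.80 (SE, adjusted p = 0.994, limma). SOX2, a pluripotency factor that neural progenitors keep, was 7.79 to 8.88 in the ESC lines and 8.35 to 9.35 in the iPSC lines (adjusted p = 0.364). HESX1, CRIPTO, DNMT3L, DPPA5, KHDC3L and EOMES stayed at or under 4 in all 7 libraries and were not tested. CRIPTO, a Nodal co-receptor, was 9.07 RPM in CMK9 and at most 3.19 RPM in the other 6 libraries. PPIA, a housekeeping gene, was 9.82 to 10.09 in the ESC lines and 9.90 to 10.17 in the iPSC lines.

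With all 7 libraries, 3 of the 2480 genes (0.121%) passed an adjusted p under 0.05 in limma, 1 higher in the ESC lines and 2 higher in the iPSC lines. At an unadjusted p under 0.05 there were 324 genes, 188 higher in ESC lines and 136 higher in iPSC lines. The median difference over all genes tested was 0.06, and 1387 of them (55.9%) had the higher mean in the ESC lines, a share to read beside the counts of list members below.

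NPTX2, which encodes a secreted pentraxin found at synapses, was the gene higher in the ESC lines. It measured 87.2 RPM in CMK6, 81.0 RPM in TRSK and 53.4 RPM in CMK9. The iPSC lines held 7.44 RPM in L3, 6.32 RPM in L6, 5.31 RPM in S6 and 8.18 RPM in S12. The lowest ESC line lay far above the highest iPSC line, and S12 did not stand away from the other iPSC lines for this gene. On the log2 scale the means were 6.19 ± 0.38 (SD, n = 3) and 2.95 ± 0.24 (SD, n = 4), a difference of 3.24 ± 0.29 (SE, adjusted p = 0.000425, limma). NPTX2 passed under all 19 alternative settings, with differences from 2.83 to 3.46.

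NDUFA4, a subunit of the mitochondrial respiratory chain, was higher in the iPSC lines. Its level on the log2 scale was 9.07, 9.51 and 9.48 in CMK6, TRSK and CMK9, and 10.33, 10.29, 10.42 and 10.19 in L3, L6, S6 and S12. The 4 iPSC values lay close together (SD 0.09) and above every ESC value. The difference was -0.95 ± 0.14 (SE, adjusted p = 0.0158, limma), and it passed in 11 of 19 alternative settings, with the adjusted p ranging from 0.00109 to 0.429. Processed copies of respiratory chain genes are common in primate genomes, and reads shared with such copies could not be separated here.

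The third gene, LOC102139111, has no symbol in the table and is named because it passed. It was 8.37, 8.08 and 8.08 on the log2 scale in CMK6, TRSK and CMK9, and 9.53, 9.42, 9.47 and 8.99 in L3, L6, S6 and S12. S12 was the lowest of the iPSC lines but still above all ESC lines. The difference was -1.18 ± 0.16 (SE, adjusted p = 0.0110, limma), and it passed in 12 of 19 alternative settings. Without L3 and S6, the adjusted p was 0.314 for LOC102139111 and 0.429 for NDUFA4, while the differences were -1.03 and -0.89.

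**Figure D1:**
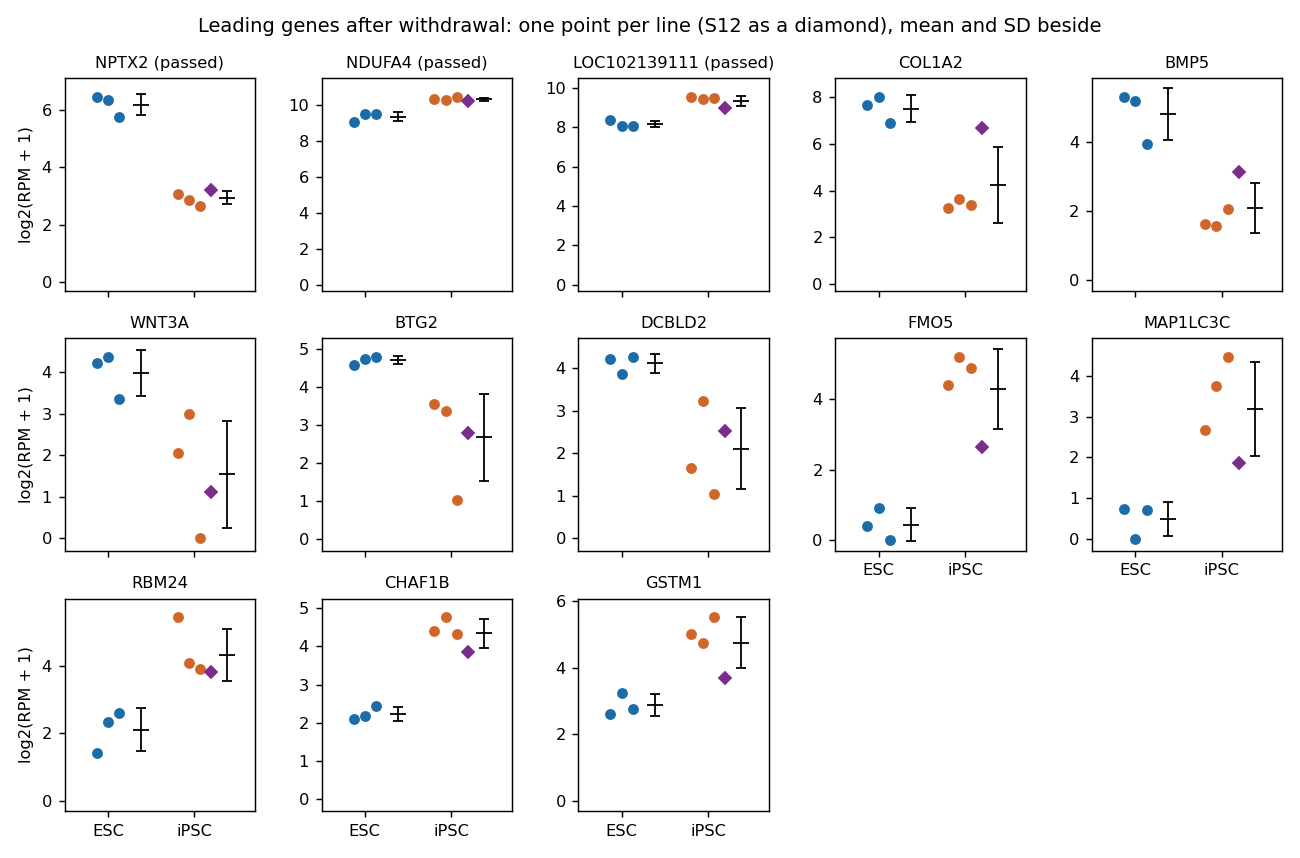
Level on the log2(RPM + 1) scale of the 13 leading genes in each withdrawn line, with ESC lines in blue, iPSC lines in orange, S12 as a purple diamond, and the mean and SD of each group in black. NPTX2, NDUFA4 and LOC102139111 passed the test, and S12 is the iPSC line closest to the ESC lines for COL1A2 (6.68), BMP5 (3.15) and FMO5 (2.65).

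The other leading genes had libraries that did not overlap between the groups but did not pass. Non-overlap by itself was common, with 167 genes (6.73%) above in every ESC line and 132 genes (5.32%) above in every iPSC line. COL1A2, a chain of type I collagen, was 7.65, 8.01 and 6.90 on the log2 scale in CMK6, TRSK and CMK9. In the iPSC lines it was 3.25 in L3, 3.62 in L6, 3.40 in S6 and 6.68 in S12. S12 thus sat beside the ESC lines and the other 3 iPSC lines lay well below, and the difference was 3.28 ± 0.68 (SE, adjusted p = 0.0757). BMP5, a bone morphogenetic protein ligand, was 5.32, 5.20 and 3.96 in CMK6, TRSK and CMK9, and 1.64, 1.58, 2.07 and 3.15 in L3, L6, S6 and S12. The L3 value lay under the level of 3 reads, and the difference was 2.71 ± 0.54 (SE, adjusted p = 0.0717).

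Genes for signals and growth control filled the remaining places on the ESC side. WNT3A, a Wnt ligand, was between 3.36 and 4.38 in the ESC lines and between 0.00 and 3.0 in the iPSC lines (adjusted p = 0.238). BTG2, an anti-proliferative p53 target, was 4.58, 4.74 and 4.79 in CMK6, TRSK and CMK9, and 3.54, 3.37, 1.04 and 2.78 in L3, L6, S6 and S12. The ESC lines were nearly alike (SD 0.11) and the iPSC lines spread more widely (SD 1.14), with adjusted p = 0.166. DCBLD2, a neuropilin-like receptor, ranged from 3.86 to 4.27 in the ESC lines and from 1.04 to 3.22 in the iPSC lines (adjusted p = 0.203). The values of WNT3A and BTG2 in S6, and of DCBLD2 in L3 and S6, lay under the level of 3 reads. The part of low depth in the spread of these genes was not tested.

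On the iPSC side, FMO5, a flavin-containing monooxygenase, was 0.41, 0.93 and 0.00 in CMK6, TRSK and CMK9, and 4.41, 5.21, 4.89 and 2.65 in L3, L6, S6 and S12. The gene was close to or under the detection level in the ESC lines, and S12 lay about midway between the groups. Its difference was -3.84 ± 0.72 (SE, adjusted p = 0.0623). CHAF1B, a subunit of the histone chaperone that assembles chromatin behind the replication fork, was 2.09, 2.18 and 2.44 in the ESC lines and 4.41, 4.77, 4.33 and 3.85 in L3, L6, S6 and S12. Both groups were tight (SD 0.18 and 0.38), and the difference was -2.10 ± 0.40 (SE, adjusted p = 0.0623). CHAF1B passed in 7 of 19 alternative settings. MAP1LC3C, an autophagy protein of the LC3 family, ranged from 0.00 to 0.72 in the ESC lines and from 1.86 to 4.47 in the iPSC lines. RBM24, a splicing regulator of muscle, ranged from 1.4 to 2.60 and from 3.82 to 5.44. GSTM1, a glutathione transferase of a family with similar copies among which reads may be split, ranged from 2.61 to 3.25 and from 3.70 to 5.52. The adjusted p of these 3 genes was 0.271, 0.114 and 0.109.

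The lines themselves did not sort cleanly by kind. Over the 2480 genes, the mean Euclidean distance between ESC lines was 33.4, between iPSC lines 37, and between lines of different kinds 40.2. The pseudo-F, which compares the spread between the groups with that within them, was 1.87 and was reached or exceeded by 3 of the 35 ways to divide 7 lines into 3 and 4 (exact permutation p = 0.0857, one-sided, smallest possible 0.0286). S12 was on average nearer to the ESC lines (36.8) than to the other iPSC lines (44.1), and its nearest line was CMK9. Each of the other 6 lines was nearer on average to its own kind. On the first principal component, which held 39% of the variance, S12 scored 16.7, beyond all ESC lines (9.09 to 14.9), and L3, L6 and S6 scored from -21.7 to -14.2.

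**Figure D2:**
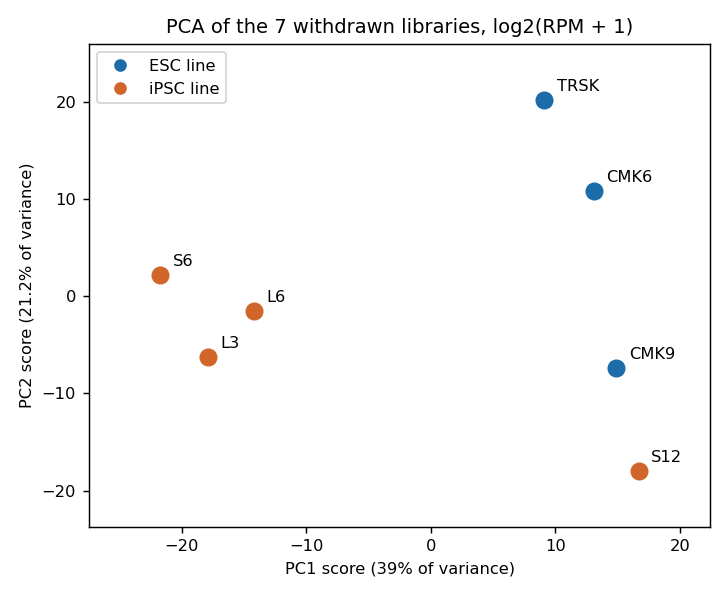
Principal component analysis of the 7 withdrawn libraries over 2480 genes, with the score on PC1 (39% of the variance) and PC2 (21.2%), ESC lines in blue and iPSC lines in orange. L3, L6 and S6 group on the left, and S12 lies on the right with the ESC lines, next to CMK9.

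The departures of S12 from the mean of the iPSC lines, gene by gene, correlated with those of the naïve-like S12 library at 0.614, the highest of the 7 lines (lowest 0.194, across 2480 genes that are not independent). In primed culture S12 was on average nearer to the iPSC lines (39.3) than to the ESC lines (46.4), and its nearest line was S6. In naïve-like culture its mean distance was 33.6 to iPSC lines and 35.8 to ESC lines, and its nearest line was CMK9. The mean distances did not part the kinds of line in naïve-like culture, where TRSK (33.6 against 36.7) and CMK9 (35.1 against 37.2) were also nearer to the iPSC lines than to the other ESC lines. Whether the place of S12 differed between the media was not tested.

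Leaving S12 out gave the largest change of all settings tried. Without it, 135 genes (5.44%) passed, 79 higher in ESC lines (3.19%) and 56 higher in iPSC lines (2.26%), and the 3 genes above were among them. The number at an unadjusted p under 0.05 went from 324 to 559. Leaving out any other line gave 1 to 10 genes, and leaving out L3 and S6 together gave 1, NPTX2. The place of S12 in these 135 genes restates that change and is given as a description. It lay inside or beyond the range of the ESC lines in 72 genes (53.3%), between the ranges in 50 genes (37%) and inside or beyond the range of L3, L6 and S6 in 13 genes (9.63%). With the mean of L3, L6 and S6 set at 0 and the ESC mean at 1, the median place of S12 was 0.80. The results given below without S12 describe 3 ESC lines against L3, L6 and S6 and cannot stand for iPSC lines at large. Leaving S12 out also took away the deepest iPSC library (about 3421000 reads). It left the shallow L3 and S6 (about 941000 and 942000) with L6 (about 3004000). The part of depth in the 135 genes was not tested.

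**Figure D3:**
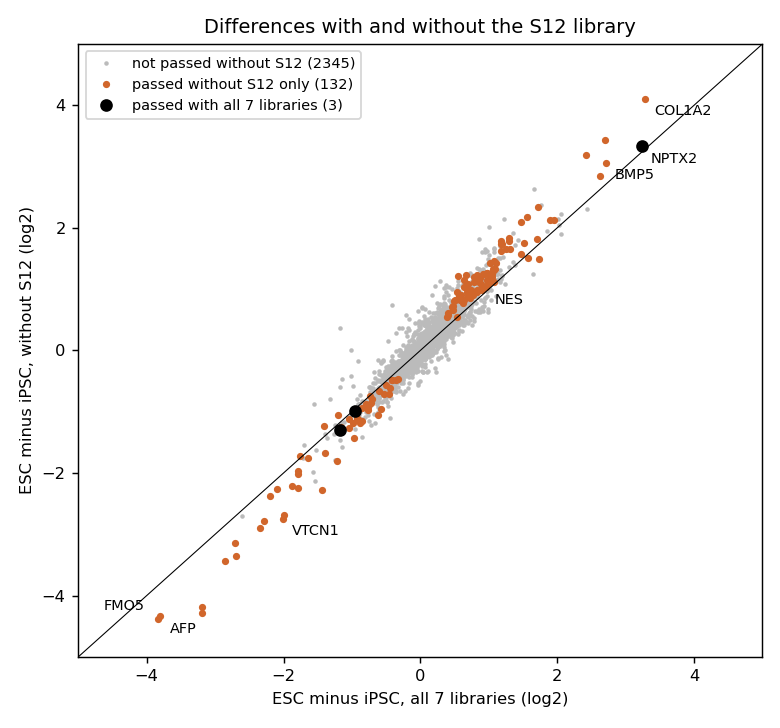
Difference between ESC and iPSC lines (log2) for each of 2480 genes, with all 7 libraries on the horizontal axis and without S12 on the vertical axis, where the line marks equal values. The 3 genes that passed with all libraries are black, and the 132 further genes that passed without S12 (orange) lie for the most part farther from 0 than the line.

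In COL1A2 the difference without S12 was 4.10 ± 0.28 (SE, adjusted p = 3.6e-05, limma), the largest on the ESC side. COL6A1 was 4.45, 4.71 and 5.53 on the log2 scale in CMK6, TRSK and CMK9, 2.66, 3.62 and 3.08 in L3, L6 and S6, and 5.53 in S12. COL11A1, a fibrillar collagen of cartilage, was 6.13, 6.16 and 6.42 in the ESC lines, 5.29, 5.21 and 4.67 in L3, L6 and S6, and 5.71 in S12. S12 thus equalled the highest ESC line in COL6A1 and fell between the groups in COL11A1. Of 8 collagen genes tested, 3 passed as higher in ESC lines without S12 and none with it, where 3.19% of all genes tested passed so without S12. Their median difference was 1.12 without S12 and 0.89 with it, beside 0.08 and 0.06 over all genes tested. With all lines, 6 had the higher mean in ESC lines, whereas COL8A1 (-1.55) and COL9A1 (-0.66) had it in iPSC lines. COL8A1 was 2.09, 2.61 and 4.90 in CMK6, TRSK and CMK9, 3.78, 4.54 and 3.89 in L3, L6 and S6, and 6.81 in S12. Of 7 fibroblast and mesenchymal genes, 2 passed as higher in ESC lines without S12 (3.19% of all genes tested did), which are the collagens COL1A2 and COL6A1 again. The list's median was 0.97 with all lines, where 5 genes had the higher mean in ESC lines and CAV1 (-0.42) and CAV2 (-0.03) in iPSC lines. The same list summed up to between 4.30 and 5.98 as a mean level in the ESC lines and between 2.82 and 5.75 in the iPSC lines, the last value being that of S12. PRRX1, a transcription factor of mesenchyme, was 4.18 in CMK9 and 1.74 in S12 and at 0 in CMK6, TRSK, L3, L6 and S6. In the somatic liver and stomach cells COL1A2 was 12.24 and 12.14.

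AFP, the foetal plasma protein of yolk sac and foetal liver, was 1.72 in CMK6, 1.67 in TRSK, 4.89 in CMK9, 6.94 in L3, 7.24 in L6, 7.12 in S6 and 4.95 in S12. The groups did not overlap, but CMK9 and S12 met at almost the same level, and the lines from liver did not differ visibly from S6, which came from stomach. The difference was -3.80 ± 0.75 (SE, adjusted p = 0.0712) with all lines and -4.34 (adjusted p = 0.00631, limma) without S12. AFP was at 0 in the somatic liver and stomach libraries, and it was the only member of the endoderm list (25 genes, 5 in the table) and of the liver list (24 genes, 12 in the table) that reached the level for testing. No gene of the stomach list or the oligodendrocyte lineage list reached it.

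VTCN1, a B7-family protein found in amnion and trophoblast, was 1.59 to 1.98 in the ESC lines, 4.84, 4.81 and 4.08 in L3, L6 and S6, and 1.61 in S12. S12 lay within the range of the ESC lines here, and the adjusted p was 0.337 with all lines and 0.00577 without S12. TFAP2A, a transcription factor of ectoderm, neural crest and trophoblast, was 1.4 to 2.74 in the ESC lines and 3.33 to 4.84 in the iPSC lines (adjusted p = 0.197, and 0.0419 without S12). VTCN1 and TFAP2A had the largest differences of the 7 trophoblast and amnion genes tested, of which 4 had the higher mean in ESC lines. Without S12, PEG10 passed as higher in ESC lines (adjusted p = 0.0401, limma), and the list's median was 0.70. Over all genes tested, 3.19% passed so, and the median was 0.08.

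Neural genes were split between the sides. NES, which encodes the intermediate filament nestin of neural progenitors, was 8.87, 9.42 and 8.99 in CMK6, TRSK and CMK9, and 7.85, 8.32, 8.0 and 8.34 in L3, L6, S6 and S12. Every ESC line was above every iPSC line, S12 included. The difference was 0.96 ± 0.17 (SE, adjusted p = 0.0611), and it passed in 5 of 19 alternative settings. FABP7, a fatty acid binding protein of radial glia, was 1.21 in CMK6, 0.00 in TRSK, 5.56 in CMK9, 6.64 in L3, 6.64 in L6, 6.06 in S6 and 2.43 in S12. CMK9 stood with L3, L6 and S6, and S12 with the other ESC lines (adjusted p = 0.343). ZIC4, a zinc finger factor of the dorsal neural tube, was 3.48 to 4.72 in the ESC lines and 0.00 to 3.25 in the iPSC lines (adjusted p = 0.358). Of 13 neural progenitor genes tested, none passed with all lines, 8 had the higher mean in ESC lines, 3 were above in every ESC line (6.73% of all genes tested were), and the median difference was 0.23. Without S12, NES and EPHA7, an ephrin receptor, were higher in ESC lines (3.19% of all genes tested were) and FABP7 higher in iPSC lines (2.26% of all genes tested were). None of 10 neuronal genes passed with or without S12, and their median difference was -0.10. The 2 neuronal genes with the largest differences were NSG1, at 2.16 to 4.52 in the ESC lines and 3.85 to 5.29 in the iPSC lines, and GAP43, at 4.39 to 6.16 and 3.08 to 5.84.

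The p53 target genes are of interest because a p53 hairpin was among the reprogramming vectors. Of 9 tested, none passed with all lines, 7 had the higher mean in ESC lines, 2 were above in every ESC line (6.73% of all genes tested were), and the median difference was 0.71 beside 0.06 over all genes tested. ZMAT3, an RNA-binding p53 target, was 7.26, 7.01 and 7.65 in CMK6, TRSK and CMK9, 5.92, 6.54 and 6.21 in L3, L6 and S6, and 7.05 in S12. CDKN1A, the cell cycle inhibitor p21, was 6.51, 5.87 and 7.05 in the ESC lines, 5.21, 5.74 and 5.13 in L3, L6 and S6, and 6.38 in S12. S12 fell within the ESC range for both of these genes but not for BTG2. Without S12 the adjusted p was 0.0166 for ZMAT3, 0.0484 for CDKN1A and 0.0677 for BTG2 (limma). SESN2, a stress-responsive p53 target, had the opposite sign, at -0.57. The vector reported to remain in L3 and L6, and in S6 or S12 by differing sources, carries this hairpin. The hairpin was not analysed here, and the part of the vector in these values was not tested.

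Signalling genes gave few calls. Of 10 Wnt pathway genes none passed with all lines, 8 had the higher mean in ESC lines, and the median difference was 0.50. SP8, a zinc finger factor that acts downstream of Wnt, was 0.00, 3.62 and 1.64 in CMK6, TRSK and CMK9, 4.94, 5.03 and 5.37 in L3, L6 and S6, and 2.43 in S12, and passed without S12 (adjusted p = 0.0280). In the Notch list of 4 tested genes, the receptor NOTCH2 and the ligand DLL1 went opposite ways without S12. NOTCH2 was 6.84 to 7.16 in the ESC lines, 5.58 to 5.95 in L3, L6 and S6, and 6.97 in S12, with a difference of 1.27 (adjusted p = 0.00393) without S12. DLL1 was 0.00 to 3.14, 4.33 to 5.17 and 2.65 in the same order, with a difference of -2.90 (adjusted p = 0.0401). HES1, a Notch target, was 3.48 to 4.80 in the ESC lines and 3.99 to 4.64 in the iPSC lines. Of the LIF and JAK-STAT genes, 3 were tested and none passed, the largest differences being 0.52 for CISH and 0.28 for JAK1, and of the FGF and ERK output genes FGFR3 (-0.16) and IL17RD (-0.03) were tested.

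**Figure D4:**
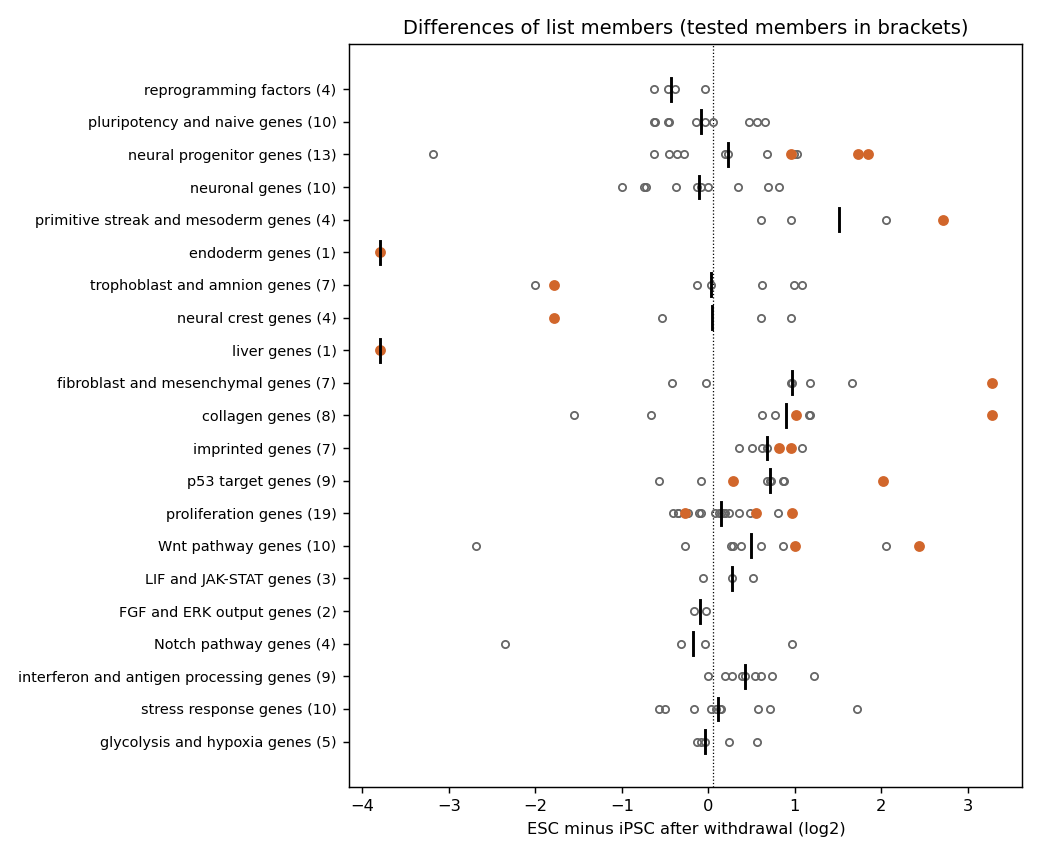
Difference between ESC and iPSC lines after withdrawal (log2, all 7 libraries) for each tested member of 21 gene lists, with filled points for genes whose ESC and iPSC libraries do not overlap, a black bar at each list's median and a dotted line at the median of all genes tested (0.06). No member passed the test, and the collagen, mesenchymal, imprinted and p53 target lists have medians from 0.68 to 0.97.

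Over all lists, 130 genes were tested and none passed with all lines. Of these, 14 (10.8%) were above in every ESC line and 4 (3.08%) above in every iPSC line, beside 6.73% and 5.32% of all genes tested. All 7 tested genes of the imprinted list had the higher mean in the ESC lines (median 0.68), and expression by parental copy was not measured. IGF2R, the receptor that clears IGF2, was 7.02, 7.30 and 7.0 in CMK6, TRSK and CMK9, and 5.99, 6.46, 5.92 and 6.78 in L3, L6, S6 and S12. SGCE, at 5.85 to 6.48 against 4.47 to 5.41, and TFPI2, at 5.33 to 6.91 against 4.25 to 6.35, had the largest differences of the list, and IGF2R and PEG10 passed without S12. All 9 interferon and antigen processing genes also had a mean at or above that of the iPSC lines (median 0.43), and none passed either way. TAPBP, which loads peptide on MHC class I, was 1.56, 2.81 and 4.13 in CMK6, TRSK and CMK9, 1.04, 0.00 and 1.04 in L3, L6 and S6, and 4.38 in S12. Its values in L3, L6 and S6 lay under the level of 3 reads. TAP1, the peptide transporter, was 2.85 to 4.14 against 2.07 to 3.25. TAP1 and IFNAR1 exceeded 4 in ESC lines only, so the filter favoured their direction.

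Of 14 primitive streak and mesoderm genes in the table, 4 were tested, and all 4 had the higher mean in the ESC lines (median 1.51). The largest differences were those of BMP5 and of RSPO3, a Wnt agonist that varied from 1.19 to 5.02 among the ESC lines and from 0.00 to 2.87 among the iPSC lines. BMP5, RSPO3 and PRRX1 exceeded 4 in ESC lines only, so the filter itself favoured that direction. MSX1, over 4 in lines of both kinds, had a difference of 0.61 (adjusted p = 0.604, limma). The medians of the 7 trophoblast and amnion genes and the 4 neural crest genes were 0.03 and 0.04. In the 10 stress response genes the median was 0.12, and IER3, an immediate early gene, was 3.05 to 4.67 in the ESC lines, 1.04 to 2.22 in L3, L6 and S6 and 4.14 in S12 (adjusted p = 0.0391 without S12). The IER3 values of L3 and S6 lay under the level of 3 reads. GADD45A, a growth arrest gene, was 5.95 to 7.34 in the ESC lines and 5.29 to 6.95 in the iPSC lines.

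The 19 proliferation genes had a median difference of 0.15, 12 with the higher mean in ESC lines, and their mean level was 6.07 to 6.47 in the ESC lines and 6.07 to 6.31 in the iPSC lines. EXO1, a DNA repair exonuclease, was 4.48 to 5.07 in the ESC lines and 3.54 to 4.17 in the iPSC lines, and NEK2, a mitotic kinase, 4.75 to 5.83 and 3.89 to 4.89. Neither passed (adjusted p = 0.203 and 0.358). The 5 glycolysis and hypoxia genes had a median of -0.04, with PFKL at 5.56 to 5.86 and 5.17 to 5.92, and AK4 at 3.41 to 5.17 and 2.66 to 4.57.

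The 10 pluripotency and naïve genes and the 4 reprogramming factors tested also gave no call with all lines. Their medians were -0.09 and -0.43, and their mean levels overlapped, at 5.87 to 6.80 in ESC lines and 5.94 to 6.80 in iPSC lines for the first list. LIN28A, an RNA-binding repressor of let-7, was 9.31 to 10.09 in the ESC lines and 9.59 to 10.47 in the iPSC lines (adjusted p = 0.392). L1TD1, an RNA-binding protein of pluripotent cells, was 3.71 to 4.81 and 3.88 to 6.11 (adjusted p = 0.576). MYCL, whose human form was on the reprogramming vectors, was 3.66 to 4.18 and 3.56 to 4.54 (adjusted p = 0.638), and DPPA2 and DPPA4, partners that open chromatin at early genes, had adjusted p = 0.625 and 0.728. The reads are from 3′ ends placed on monkey genes, and vector transcripts were not measured apart from them. CD24, a surface glycoprotein, was 9.48 to 9.59 in the ESC lines, 10.20 to 10.36 in L3, L6 and S6 and 9.27 in S12, and was the 1 gene of these lists to pass without S12 (adjusted p = 0.00577).

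The withdrawal response itself was then compared, as the change from the naïve-like to the withdrawn library in ESC lines minus that in iPSC lines. No gene passed (0%, smallest adjusted p = 0.998), with 107 genes at an unadjusted p under 0.05. With the line as a block, which pairs both libraries of a line, 0 passed (smallest adjusted p = 0.559) and 176 had an unadjusted p under 0.05. In the fit without the block, the 5 genes with the smallest p were SNX7, PIGP, ARHGEF26, ZNF273 and BMP5. With the block, IER3 and VTCN1 (unadjusted p = 0.00183 and 0.00321, limma) came before ZNF273 (0.00528) and BMP5 (0.00758). SNX7, a sorting nexin of endosomes, changed by -0.32, -0.42 and -0.72 in CMK6, TRSK and CMK9, and by -2.74, -2.73, -1.88 and -1.71 in L3, L6, S6 and S12. BMP5 changed by 5.32, 4.10 and 1.80 in the ESC lines and by 0.55, -0.10, -1.13 and 1.88 in the iPSC lines. ARHGEF26, a guanine nucleotide exchange factor, changed by 1.90, 1.16 and 1.99 and by 0.04, -0.78, -0.99 and 0.69. PIGP, of GPI anchor synthesis, had a mean change of -0.48 in ESC lines and 0.39 in iPSC lines, and ZNF273, a zinc finger gene, of -0.45 and -1.51. The changes of SNX7, ARHGEF26, PIGP and ZNF273 did not overlap between the kinds of line, whereas that of BMP5 in S12 fell above that in CMK9, but none of these differences passed over all genes. Those 5 genes were picked for a small p, which favours such separation, and its share over all genes was not counted.

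The same lines had already differed before withdrawal. Over the same 2480 genes, 7 (0.282%) passed in naïve-like culture and 0 (0%) in primed culture, where 280 and 313 genes had an unadjusted p under 0.05 in limma. The pseudo-F was 1.56 in naïve-like culture (exact permutation p = 0.0857) and 2.02 in primed culture (exact permutation p = 0.0286, the smallest possible), and the difference between media was not tested. NDUFA4 and LOC102139111 were among the 7. Of the 3 genes that passed after withdrawal, LOC102139111 alone was separated without overlap in all 3 media, at 7.71 to 8.42 in the ESC lines and 9.0 to 9.64 in the iPSC lines of the other 2 media. NDUFA4 was separated in naïve-like culture and overlapped in primed culture, where TRSK reached 10.28. NPTX2 was separated in primed culture, at 3.23 to 4.63 against 0.92 to 3.19, and overlapped in naïve-like culture, at 2.98 to 4.11 against 1.09 to 3.13. The mean change of NPTX2 on withdrawal was 2.47 in the ESC lines and 1.18 in the iPSC lines, a difference with an unadjusted p of 0.0663 in limma.

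**Figure D5:**
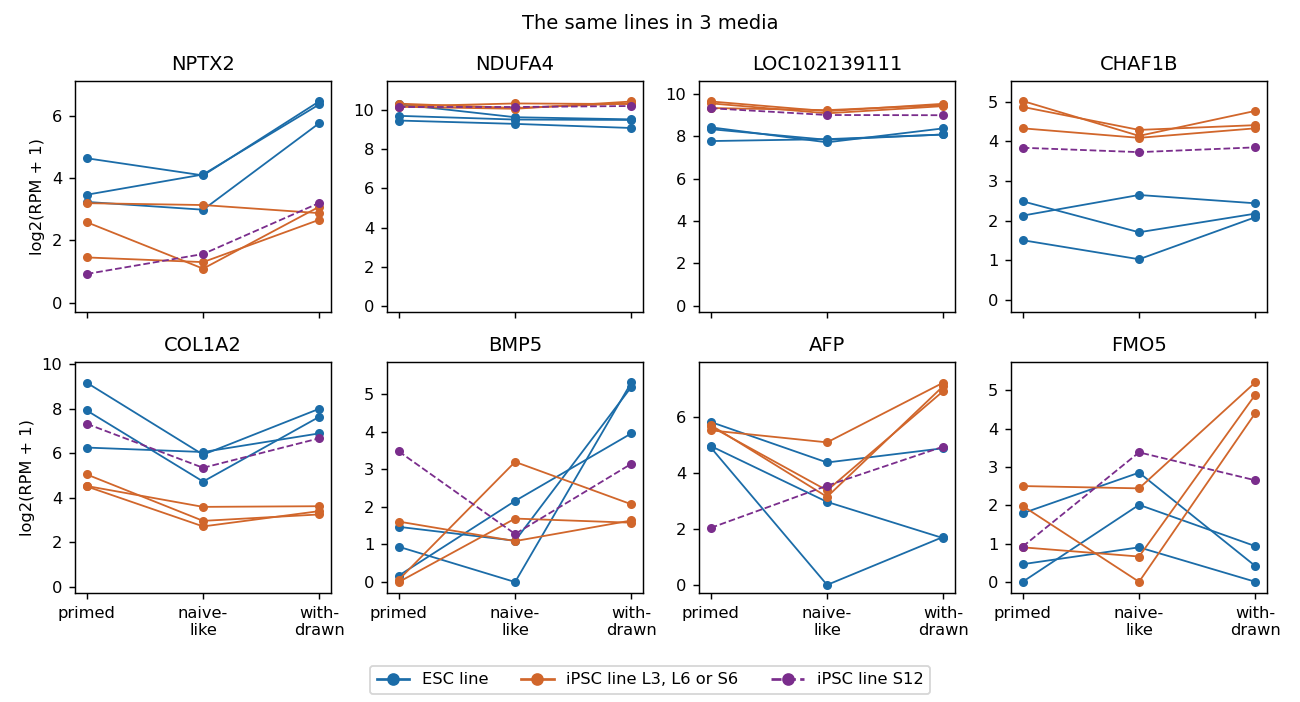
Level on the log2(RPM + 1) scale of 8 genes in primed, naïve-like and withdrawn cells, with 1 line drawn per cell line (ESC lines in blue, L3, L6 and S6 in orange, S12 dashed in purple). LOC102139111 and CHAF1B keep the ESC and iPSC lines apart in every medium, COL1A2 of S12 stays with the ESC lines in every medium (5.35 to 7.33), and BMP5, AFP and FMO5 do not separate the kinds of line before withdrawal.

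Of the 167 genes above in every ESC line after withdrawal, 36 (21.6%) were so in primed culture, where 138 genes (5.56%) were, and 26 (15.6%) in naïve-like culture, where 119 genes (4.80%) were. Those shared genes made up 26.1% and 21.8% of the primed and naïve-like lists. Of the 132 genes above in every iPSC line, 32 (24.2%) were so in primed culture, out of 166 genes (6.69%), and 37 (28.0%) in naïve-like culture, out of 174 genes (7.02%), or 19.3% and 21.3% of those lists. In all 3 media, 13 genes were above in every ESC line and 17 in every iPSC line. Besides LOC102139111, the iPSC side held CHAF1B and GSTM1, with differences of -2.47 and -1.57 in primed, -2.27 and -1.58 in naïve-like and -2.10 and -1.87 in withdrawn cells. The libraries of different media share their lines, so this recurrence does not come from independent lines, and the genotype of the 1 iPSC donor cannot be told apart from iPSC origin in it. COL1A2 of S12, at 7.33 in primed and 5.35 in naïve-like culture, lay within the range of the ESC lines there, 6.26 to 9.18 and 4.73 to 6.06, as L3, L6 and S6 did not in either medium.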

How the data were processed

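SC3-seq libraries, which capture the 3′ ends of amplified cDNA, had been made by the authors from 1 ng of total RNA. The submitters' notes name cutadapt 1.3, TopHat 1.4.1 and Cufflinks 2.2.0. The deposited values are RPM, with 1 column per library. They were not recovered as whole reads (88.1% to 92.8% of values above 0 in these libraries were whole multiples of 1 read within 0.01), so no count test was used. Of 8416 rows, 1 was incomplete. RPM became log2(RPM + 1), and fold changes of low genes are understated on that scale. Genes above 4 in at least 1 of the 7 libraries were tested with limma 3.58.1 (R 4.3.3, mean-variance trend, two-sided, Benjamini-Hochberg) on these 7 libraries. The lines are separate lines, with 1 library each. The response was an interaction over 14 libraries. Pseudo-F used an exact permutation test. The fits were tested on simulated data. In both media, deviations of a line's libraries from its group correlated at 0.194 to 0.614, so the response was also fitted with the line as a replicate block. Symbols for 980 genes came from RefSeq (T2T-MFA8v1.1), for names only.

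The genes, 24 lists and comparisons were chosen with earlier results of these data known. Named were passing genes, filled to 6 a side with the largest non-overlapping differences (range under 2 in 1 group), up to 4 passing or else the 2 largest members of each list, 16 preset genes and the 5 smallest response p. IGF2R, CD24, COL6A1, COL9A1, COL11A1, CAV1, CAV2, MSX1, IFNAR1, EPHA7, PEG10, SESN2, HES1 and the genes of the closing part were named after their values were seen, as were the libraries left out together. Some genes are not reported here.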

Additional observations from a re-analysis of the deposited data

Results flagged for a closer look

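Among the 4 iPSC lines, 1 line can lie apart from the other 3 by more than Dixon's limit, which chance exceeds in about 1 of 20 groups. Of 64 sets of 4 values examined (63 named genes and the first principal component), 14 had such a line, and in 9 of them the line was S12. The genes are not independent of each other, and many were named for their values in these same libraries. The rate of 1 in 20 is therefore no measure for these counts, which are given as a description. S12 lay apart in COL1A2 (gap over range 0.891), FABP7 (0.862), AFP (0.870), SP8 (0.855), JAK1 (0.934) and MYCL (0.861). In COL1A2 it was above and in FABP7, AFP, SP8 and MYCL below the other iPSC lines, in each case on the side of the ESC mean, and JAK1 was 6.40 in S12 against 5.13 to 5.21 in L3, L6 and S6. For PRRX1, DNMT3L and EOMES the ratio was 1, because S12 had reads and the other 3 lines were at 0, at levels of 1.74, 2.08 and 0.66 on the log2 scale.

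L3 lay apart in RBM24 (0.838), with 5.44 against 3.82 to 4.09, and in CISH (0.937), with 4.54 against 2.66 to 2.78. L3 was also the only iPSC line with reads of DPPA5 and KHDC3L (ratio 1 in each), at 1.04 and 1.64, which is under the level of 3 reads in that library. S6 lay apart in SGCE (0.943), with 4.47 against 5.36 to 5.41. L3 and S6 are the 2 shallowest libraries. The ESC group of 3 was too small for this comparison.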

How the results depend on the processing

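The count of 3 genes stayed at 3 with a pseudocount of 0.1 or 4 and with a stricter filter, and was 2 without the mean-variance trend. It was 1 without a filter (5218 genes, 504 at an unadjusted p under 0.05), 9 after quantile normalization (2 higher in ESC lines and 7 in iPSC lines), 16 after centring of the libraries, 7 with a robust prior and 17 with all 21 libraries of stem cell lines in 1 fit. Of the settings chosen after seeing the data, 14 libraries in 1 fit gave 21, the fit without L3 and S6 gave 1, and genes with at least 3 reads in every library gave 7 of 2373. Leaving out 1 line gave 1 to 135, where 135 was without S12 and the others gave at most 10. The split between higher in ESC and in iPSC lines was 1 and 2, but 79 and 56 without S12. The causes were not tested.

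No response gene passed under any setting, the replicate block (0 passed, 176 at an unadjusted p under 0.05 against 107) included. The paired fit cannot be made for ESC against iPSC lines, which share no line. Pseudo-F was 1.81 to 2.05 under other settings and 1.41 to 3.05 with 1 line left out, 3.05 being without S12 (exact permutation p = 0.1, the smallest 3 against 3 lines allow). The 1 passing gene separated in all media stayed 1 after quantile normalization.

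Differences near 0 changed sign without passing, for GAP43 (-0.02), JAK1 (-0.04), PFKL (-0.03) and POU5F1 (0.53) without L3 and S6, for POU5F1 with a pseudocount of 4 (0.04), and for PPIA after quantile normalization (0.11). With 1 line left out they did so for PRRX1 (range -0.43 to 1.65), FGFR3 (-0.43 to 0.04), AK4 (-0.02 to 0.94), IL17RD (-0.37 to 0.44), POU5F1 (-1.10 to 0.87) and PIGP (-0.08 to 0.03). Low depth in L3 and S6 limits genes under about 3.19 RPM.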

Other observations

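Over the 2480 genes, CMK9 had the lowest mean distance to the iPSC lines of the ESC lines, 39.1, against 40.1 for CMK6 and 41.3 for TRSK. Among the 299 genes whose groups did not overlap, CMK9 was the ESC line closest to the iPSC mean in 146, against 80 for CMK6 and 73 for TRSK. S12 was the iPSC line closest to the ESC mean in 132 of them, against 60 for L3, 57 for L6 and 50 for S6. The 299 genes were chosen by these same libraries, and such counts over all genes were not made. HESX1, a homeobox gene of epiblast and forebrain, was 7.38 RPM in CMK9, at 0 in the other ESC lines and at most 1.66 RPM in the iPSC lines. POU5F1 was 69.2 RPM in CMK9, against 3.59 RPM in CMK6 and 12.2 RPM in TRSK. NPY, a neuropeptide, was 5.31 on the log2 scale in CMK9, 0.00 in CMK6 and TRSK, and 1.64 to 3.25 in the iPSC lines. MEST, an imprinted gene, ran the other way, at 10.04 in CMK6, 9.18 in TRSK and 4.95 in CMK9, with the iPSC lines at 7.09 to 8.07.

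SIM1, a transcription factor of hypothalamic neurons, was close to 0 in the ESC lines (mean 0.09) and at 0.00 in S12, whereas L3, L6 and S6 had a mean of 4.38. CAMKV, a kinase-like vesicle protein of brain, had a mean of 2.93 in the ESC lines, 5.21 in L3, L6 and S6, and 1.86 in S12. The matrix and cell surface genes CCDC80 and SEMA3C had means of 5.32 and 7.37 in the ESC lines, 3.23 and 6.22 in L3, L6 and S6, and 5.72 and 8.28 in S12. PHGDH, the first enzyme of serine synthesis, had a mean of 7.13 in the ESC lines, 8.26 in L3, L6 and S6, and 7.34 in S12.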
